A study of Arabidopsis thaliana with 36 samples.

Results

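Histone genes are described here together with the genes for enzymes and other proteins that act on histones, in seedlings of the thale cress Arabidopsis thaliana. A gene was taken where its description in the submitters' deposited gene tables, which list 20957 genes, contains the word histone. This gave 86 genes of the 33602 in the count table. Of these, 42 encode histones of 11 kinds and 44 encode histone-related proteins. The histones were 1 linker histone H1, 4 H2A, 2 H2A.X, 3 H2A.Z, 3 H2A.W, 10 H2B, 5 H3.1, 3 H3.3, the centromeric histone HTR12, 2 other H3-like genes and 8 H4 genes. The related genes were 9 acetyltransferases, 13 deacetylases, 10 genes described as methyltransferases or related to them, 2 histone ubiquitin ligases, 4 chaperones and 6 others. The rule used descriptions, not measured values. Only genes listed in the deposited tables could be taken, so family counts here are of the genes taken and not of whole families.

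The study asked how the seedling organs respond to light that is poor in red relative to far-red, the signal of neighbouring leaves. Seedlings of the wild-type accession Col-0 were raised on plates in long days until they were 5 days old. The next morning they were either moved to a low ratio of red to far-red light (low R/FR) or kept in a high ratio (high R/FR). Hypocotyls, the embryonic stems, and cotyledons, the seed leaves, were dissected after fixation and sequenced as poly(A)-selected, stranded RNA libraries. The groups were low R/FR at 15, 45, 90 and 180 min in each organ and high R/FR at 0, 15, 45, 90 and 180 min in each organ. Every one of these 18 groups had 2 libraries, each from 50 seedlings of 1 plate, so 36 libraries in all. The labels do not say that the libraries of a group came from separate sowings or days, and the p-values measure only the spread between such libraries.

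Each library held between 23560273 and 45115165 counts assigned to genes. Levels are given as CPM, counts scaled to a common library size after TMM (trimmed mean of M values) normalization. The TMM factors were 0.767 to 0.854 in cotyledon and 1.185 to 1.29 in hypocotyl libraries. Changes are log2 ratios ± standard error from edgeR's quasi-likelihood test. A gene is called, and said to have risen or fallen, at a Benjamini-Hochberg adjusted p under 0.05 over all genes tested. The shade marker genes HFR1, PIL1 and ATHB2 rose in hypocotyls at 180 min by 2.10, 3.28 and 2.78 on the log2 scale. In 1 library, the second hypocotyl replicate of high R/FR at 15 min, 39 non-unique alignments were recorded per 100 gene counts, against 7.24 to 20.2 in the others. Genes with near-identical copies are most exposed to that.

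As background, DNA is wrapped around octamers of the core histones H2A, H2B, H3 and H4, and linker histone H1 binds between them. Canonical forms such as H3.1 are made mainly during S phase, when new chromatin is assembled behind the replication fork, and chromatin assembly factor CAF-1 deposits H3.1. Variants such as H3.3 and H2A.Z are made throughout the cell cycle; H3.3 replaces H3 in transcribed genes. H2A.X is known for its part in DNA repair and H2A.W for its place in heterochromatin. Acetyltransferases and deacetylases add and remove acetyl groups on histone tails, and HD2 proteins are a deacetylase family found in plants and located in the nucleolus.

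The promoters of plant histone genes are known for short shared elements linked to expression in S phase, the octamer CGCGGATC and the hexamer ACGTCA. The window searched ran from 250 bases before to 50 bases after the deposited start of each gene, 300 bases in all, on both strands. The octamer, or its reverse complement GATCCGCG, was in 11 of 42 histone promoters (26.2%), against 34 of 20849 promoters of all listed nuclear genes (0.163%). It was in 3 of 4 H2A, 3 of 5 H3.1, 2 of 8 H4, 1 of 3 H2A.W, 1 of 3 H3.3 and 1 of 10 H2B promoters and in 0 of the 44 related genes. Its 13 sites lay between 225 and 75 bases before the start. The hexamer, or TGACGT, was in 13 of 42 histone promoters (31%), against 2088 of all promoters (10.0%), and 9 of those 13 belonged to the 10 H2B genes. The related genes had it in 2 of 44 promoters (4.55%).

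Other motifs were at shares nearer to that of all promoters. The G-box CACGTG, the element best known for binding the light-signalling PIF factors, was in 5 histone promoters (11.9%), against 9.16% of all promoters. The related genes had the G-box in 5 of 44 promoters (11.4%). The telo-box AAACCCTAA was in 2, both H2A.X genes, against 4.95%. The E2F element TTTCCCGC was in 0 of 42 histone promoters, against 0.954% of all and 11 of the 21 promoters (52.4%) on a list of DNA replication genes. No site of one motif overlapped a site of another in the histone promoters. A match says only that these letters stand in the window.

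A selection of sites, from genes whose levels are described below, is shown with 10 bases on each side, 5′ to 3′ on the strand of the gene, with the motif in capitals. The sites were read from the RefSeq sequence of TAIR10.1 at the deposited TAIR10 coordinates, and all 86 genes overlapped the RefSeq gene of the same locus tag. All but the first lie upstream of the deposited start. The first begins at the second base of the deposited gene interval. Other sites of these and of other members are not shown.
HIS1-3 G-box, chr2:7845914-7845939, plus strand: acttaaacgaCACGTGtacgctcatg
HTA7 G-box, chr5:9793588-9793613, minus strand: ttacaacaccCACGTGtaatgtcata
HTB4 G-box, chr5:24126950-24126975, plus strand: taagaaccgtCACGTGtgagagcttt
HTB4 hexamer, chr5:24126907-24126932, plus strand: aatctgggacACGTCAatagtcctgg
HTB4 octamer in reverse, chr5:24127038-24127065, plus strand: tacagatatcGATCCGCGtcaacttaat
AT2G28720 hexamer, chr2:12326748-12326773, plus strand: aacgtgatccACGTCAccaacgatac
AT2G28720 hexamer, chr2:12326891-12326916, plus strand: caaaatcaccACGTCAtcaatccttg
HTB9 hexamer, chr3:16898154-16898179, minus strand: caatattgacACGTCAtcgatcccgc
HTA10 octamer, chr1:18926727-18926754, plus strand: ttcactctgaCGCGGATCctgaatctcg
HTA10 octamer in reverse, chr1:18926791-18926818, plus strand: gataaacagcGATCCGCGtagtttcttc
AT5G65360 octamer, chr5:26120690-26120717, minus strand: ttagacgtgaCGCGGATCactaaaatta
AT1G09200 octamer, chr1:2972336-2972363, minus strand: tgtgatttcaCGCGGATCgtgatagaaa
AT5G59690 octamer, chr5:24051393-24051420, plus strand: actgccatcaCGCGGATCactaatatga

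**Figure D1:**
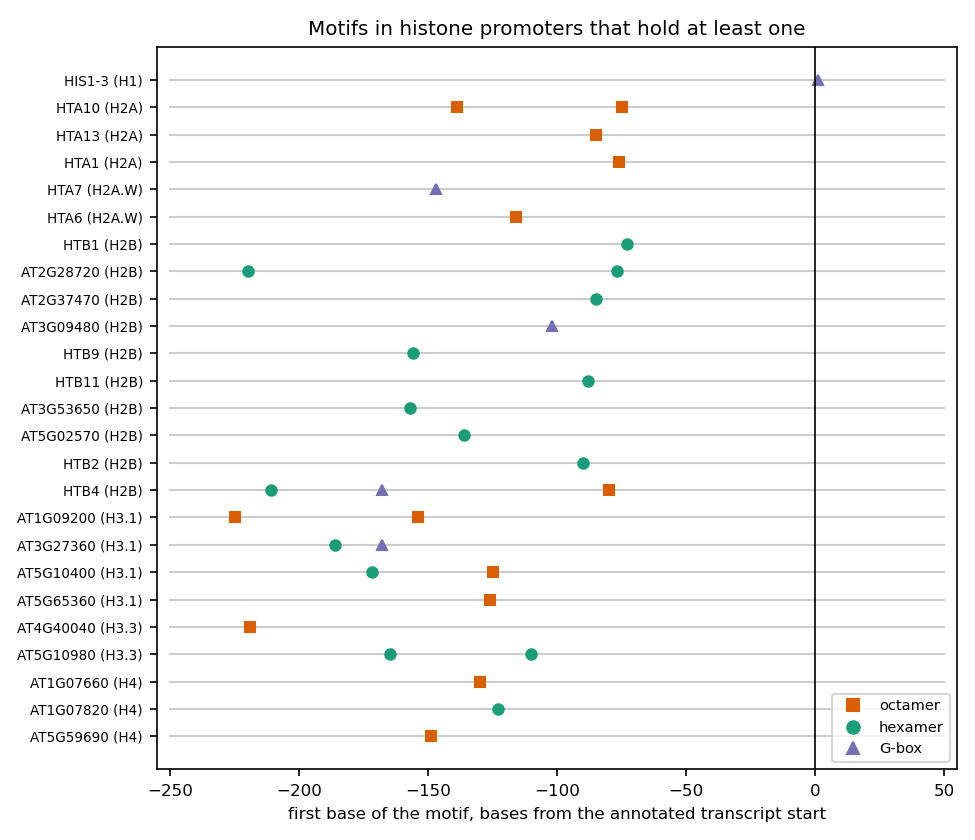
Positions of the octamer, hexamer and G-box in the histone promoters that hold them, as distance in bases from the deposited start. The octamer sites run from -225 to -75 and the hexamer sites from -220 to -73, and 9 of the 13 genes with a hexamer encode H2B.

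The first comparison is between the organs in high R/FR, over 10 hypocotyl and 10 cotyledon libraries with time as a term. After TMM scaling, most histone mRNAs were lower in hypocotyls than in cotyledons. Of 41 histones tested, 36 were lower in hypocotyls and 3 were higher, with a median log2 difference of -1.51. Over all 19825 genes tested 80.2% were called (39.4% lower and 40.8% higher in hypocotyls), and the median was 0.01. The libraries of the organs did not overlap for 34 of the 42 histones, lower in hypocotyls for 32 and higher for 2. Over all genes tested this held for 37.3%, with 18% lower and 19.4% higher. In bulk tissue, fewer cells that make a histone and less of its mRNA per cell cannot be told apart.

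Replication-coupled histones showed a wide gap. The H3.1 gene AT1G09200 was at 11.8, 15.0 and 17.6 CPM in hypocotyls (lowest, median and highest of 10), against 67.4, 80.1 and 99.0 CPM in cotyledons. The difference was -2.44 ± 0.05 with adjusted p 1.93e-18, and no hypocotyl library came near the lowest cotyledon library. The other abundant H3.1 gene, AT5G65360, was at 16.2, 20.3 and 23.1 CPM in hypocotyls, against 83.3, 93.0 and 112 CPM in cotyledons. All 5 H3.1 genes were lower in hypocotyls (median -1.92), as were all 8 H4 genes (-1.64, of which AT1G07660 turned with library totals alone), all 10 H2B genes (-1.74) and all 4 H2A genes (-1.31). Summed over the family, H3.1 stood at 41 to 57.5 CPM in hypocotyls and 204 to 275 CPM in cotyledons.

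Single genes of those families differed in how wide the gap was. The H2B gene AT3G53650 was at 0.348, 0.652 and 0.869 CPM in hypocotyls, against 4.52, 6.56 and 8.12 CPM in cotyledons (-3.41 ± 0.14). The abundant H2B gene HTB4 was at 93.5, 105 and 122 CPM in hypocotyls, against 227, 241 and 264 CPM in cotyledons (-1.21). The H4 gene AT5G59690 was at 29, 36.7 and 43.8 CPM in hypocotyls, against 110, 132 and 163 CPM in cotyledons (-1.91 ± 0.05). The H4 genes encode the same small protein, and most have stretches that recur elsewhere in the genome. Of the windows of 50 exonic bases, 69.2% occur once in the genome in AT1G07660, 72.1% in AT3G46320 and 74.3% in AT3G45930. The share was 80.6% in AT1G07820, 91.5% in AT5G59690 and 93.1% in AT5G59970. Single levels of these genes are less certain than those of the other histones named, at 97.9% or more. The H4 genes HIS4 and AT3G53730 were at 100%. AT1G07660 had the narrowest of the 36 called lower differences, -0.13, and leaving out any of 9 of the 20 libraries lost that call.

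For 2 of the 3 H3.3 genes no gap was called. AT4G40030 was at 199, 229 and 264 CPM in hypocotyls, against 209, 226 and 254 CPM in cotyledons (-0.02), and AT4G40040 at 174, 217 and 263 CPM, against 158, 222 and 265 CPM (0.06). Neither passed the test, and the libraries of both organs ran over the same range. The third H3.3 gene, AT5G10980, was lower, at 60.1, 70.7 and 89.2 CPM in hypocotyls against 125, 144 and 170 CPM in cotyledons (-0.97). Variants of H2A were also uneven. HTA9, an H2A.Z gene, was slightly higher in hypocotyls (0.12), while the H2A.Z gene HTA11 was at 4.80, 5.61 and 7.09 CPM in hypocotyls, against 22.1, 26.6 and 33.7 CPM in cotyledons (-2.23 ± 0.05). HTA12, an H2A.W gene, was at 10.9, 13.7 and 14.6 CPM in hypocotyls, against 4.61, 6.10 and 9.03 CPM in cotyledons (1.04 ± 0.08), with no overlap, while HTA6 of the same family was lower (-2.25 ± 0.06).

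The linker histone HIS1-3, a short H1 known for its induction by drought, was mostly a hypocotyl mRNA. It was at 9.28, 18.5 and 25.6 CPM in hypocotyls and 0.0477, 0.205 and 0.418 CPM in cotyledons (6.39 ± 0.14, adjusted p 2.54e-18). The other linker histones, AT1G06760 and AT2G30620, which the rule did not take, went the other way. Their hypocotyl over cotyledon differences were -1.38 ± 0.08 and -1.27 ± 0.07. Together those main linker genes summed to 64.2 to 167 CPM in hypocotyls and 199.8 to 365 CPM in cotyledons.

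**Figure D2:**
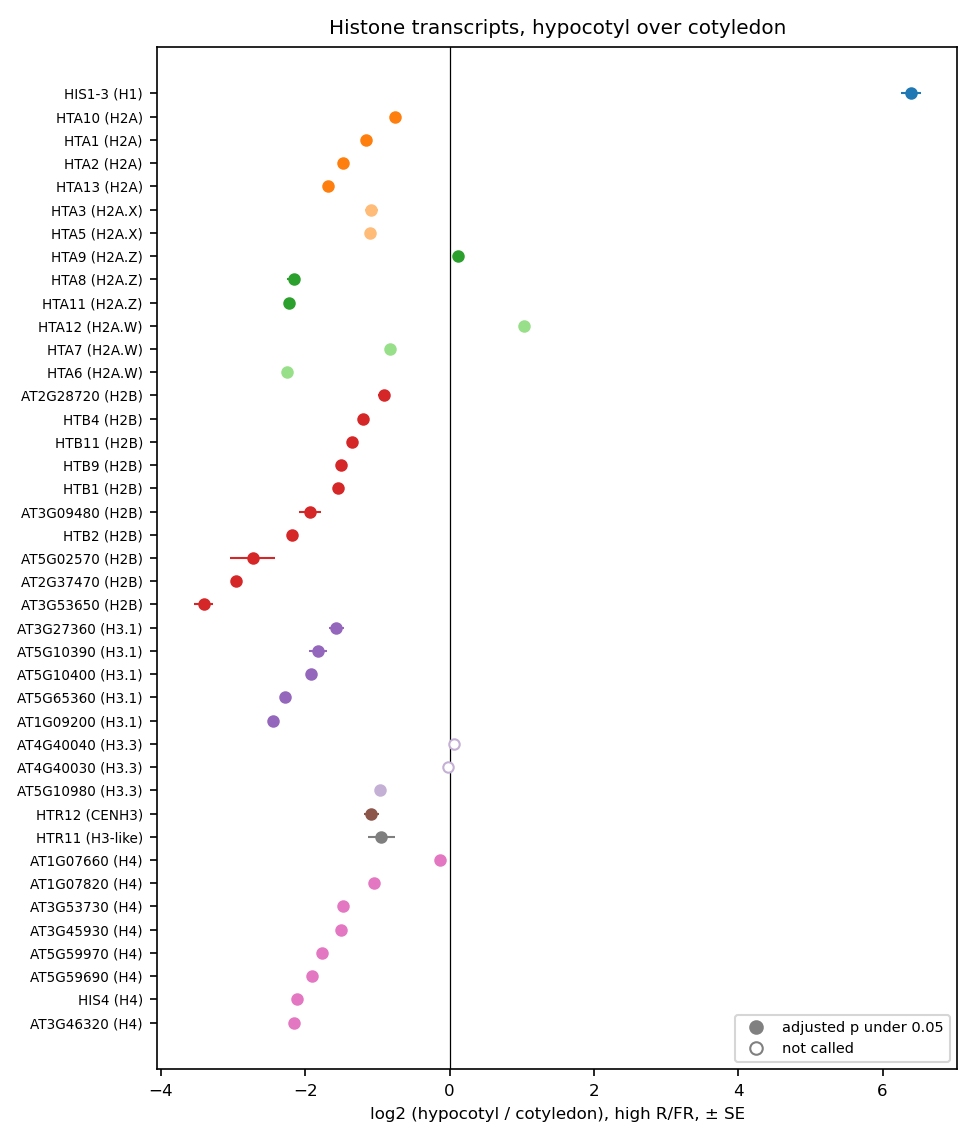
Difference between hypocotyl and cotyledon in high R/FR for each histone gene tested, as log2 ratio ± standard error, grouped by family. HIS1-3 stands alone at 6.39, HTA12 and HTA9 are above 0, and the H3.1, H4, H2B and H2A genes are all below 0, of which AT1G07660 turned with library totals alone.

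The size of these gaps depends on the scaling, because the TMM factors differ between the organs. With library totals alone, an alternative chosen after seeing the data, the median of all genes moved to 0.65 and 80.2% of all calls were higher in hypocotyls, against 50.9% with TMM. The histones were then lower in 33 and higher in 6 genes, with a median of -0.87. The 6 were HIS1-3, HTA12, HTA9, the H3.3 genes AT4G40030 (0.61) and AT4G40040 (0.69) and the H4 gene AT1G07660, which turned to 0.50. HTA10 (-0.12) and the H3-like gene HTR11 (-0.31) did not pass the test under that setting.

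Other lists also differed between the organs, where 39.4% of all genes were called lower in hypocotyls and 40.8% higher. All 21 DNA replication genes were lower in hypocotyls (median -1.57; the origin licensing factor CDC6 -2.75, the polymerase subunit ICU2 -1.72, the sliding clamp PCNA2 -1.46). Of 12 genes of G2 phase and mitosis, 5 were higher and 3 lower (median -0.03). The 7 stomatal lineage markers were lower (median -4.60), summing to 2.27 to 4.06 CPM in hypocotyls and 40.1 to 62.9 CPM in cotyledons, with SPCH, which starts that lineage of dividing cells, at -5.05. The 5 Casparian strip genes of the endodermis were higher, summing to 34.1 to 113 CPM in hypocotyls and 0.0783 to 0.385 CPM in cotyledons, and the 3 photosynthetic genes summed to 10989 to 16549 CPM in hypocotyls and 53420 to 60052 CPM in cotyledons. Of 6 shoot apex genes 2 could be tested, STM (7.18) and CUC3 (5.57), both higher in hypocotyls but on few reads. Over both lights STM was at 0.789 to 1.98 CPM in hypocotyl libraries and at 0 in 17 of 18 cotyledon libraries. CUC3 was at 0.253 to 1.45 CPM in hypocotyl libraries and at 0 in 14 of 18 cotyledon libraries. The stem cell gene WUS was at 0 in 17 of 18 hypocotyl and 18 of 18 cotyledon libraries, and 0 of 5 root tip genes had enough counts for a test. The part of these cell types in the histone difference was not tested.

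The order of histone levels can be compared per length, as CPM per kilobase of RefSeq exons. In hypocotyls the medians ran from AT4G40030 (173.3) through AT4G40040 (143.6), AT5G10980 (86.4) and HTB4 (81.7) to HTA9 (70.7), so that the H3.3 genes led. In cotyledons they ran from HTB4 (187.4) through AT5G59690 (176.9), AT5G10980 (175.8) and HTB9 (175.7) to AT4G40030 (170.4). Neighbours in the order had overlapping ranges of libraries in 36 of 41 steps in hypocotyls and 40 of 41 in cotyledons, so the order is firm at few places. One is the step below AT4G40040 in hypocotyls.

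Of 43 histone-related genes tested, 13 were higher and 14 lower in hypocotyls, with a median of -0.06, and 80.2% of all genes were called. This split depends on the scaling, since with library totals without TMM 37 were higher and 3 lower (median 0.57). AT1G77660, described as a SET7/9 type methyltransferase, was at 26, 30.7 and 35.8 CPM in hypocotyls, against 2.03, 3.12 and 3.64 CPM in cotyledons (3.39 ± 0.07). AT2G35170 (1.48) and AT1G21920 (1.35), which carry the same description, were also higher. Among deacetylases HDA8 (1.05) and HDA5 (0.69) were higher in hypocotyls, while HDA14, known from chloroplasts, was lower at 19.1, 20.8 and 27.9 CPM in hypocotyls, against 40.4, 48.5 and 61.7 CPM in cotyledons (-1.19). AT2G40020, described as related to a nucleolar methyltransferase, was at 7.77, 10.6 and 17 CPM in hypocotyls, against 38.6, 53.1 and 61.3 CPM in cotyledons (-2.21). Of 8 acetyltransferases 1 was higher and 4 were lower (median -0.18), but scaled to library totals without TMM 8 were higher and 0 lower (median 0.46).

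The second comparison is low against high R/FR at each time. In cotyledons few histones changed. No member was called at 15 min, where 0.219% of all genes were, and 0 members had an unadjusted p under 0.05 or were called by DESeq2. At 45 min 1 histone rose and 0 fell, where 3.62% of all genes were called (2.31% higher, 1.31% lower). At 90 min 3 rose and 0 fell, against 10.8% of all genes (4.41% higher, 6.35% lower). At 180 min 2 rose and 0 fell, against 19.5% of all genes (8.02% higher, 11.5% lower). The median histone change was 0.05, 0.07 and -0.01 at these times, against medians between -0.02 and 0 over all genes.

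HTA12 accounted for a call at each of those times. In cotyledons it was at 7.74 and 10.8 CPM in low R/FR, against 6.24 and 5.61 CPM in high R/FR, at 45 min (0.64 ± 0.14, adjusted p 0.00548). It was at 11.9 and 12 CPM in low R/FR, against 7.21 and 6.86 CPM in high R/FR, at 90 min (0.77 ± 0.13, adjusted p 6.89e-05). It was at 16.4 and 16.4 CPM in low R/FR, against 9.03 and 8.67 CPM in high R/FR, at 180 min (0.89 ± 0.13, adjusted p 4.18e-06). Both low R/FR libraries lay above both high R/FR libraries each time, and only the call at 45 min was lost on leaving out a library, for 2 of the 4. At 90 min the H2A.W gene HTA7 (56.4 and 53.8 CPM in low R/FR, 41 and 43.5 CPM in high R/FR, 0.38 ± 0.09) and the H2A gene HTA1 (44.8 and 45.6 CPM in low R/FR, 33.4 and 34.1 CPM in high R/FR, 0.42 ± 0.10) also rose. HIS1-3 was called higher at 180 min on few reads, 19 and 14 counts in low R/FR against 4 and 7 in high R/FR (1.64 ± 0.55, adjusted p 0.0354), and that call was lost without any 1 of the 4 libraries.

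In hypocotyls more histones were called at later times. At 15 min no member was called (0.179% of all genes were, 0.159% higher and 0.0199% lower), 4 histones and 1 related gene had an unadjusted p under 0.05, and DESeq2 called 0. At 45 min 1 histone rose and 2 fell (3.31% of all genes called, 2.09% higher and 1.22% lower). HTA12 was at 17.8 and 18.8 CPM in low R/FR, against 14.1 and 13.6 CPM in high R/FR (0.40 ± 0.11). HTA10 (-0.39 ± 0.09) and the H2B gene AT2G28720 (-0.48 ± 0.14) fell, and each of the 3 calls was lost without 3 or 4 of the 4 libraries.

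At 90 min 10 histones fell and 1 rose in hypocotyls, where 37.6% of all genes were called (19.1% higher, 18.5% lower) and 26.8% of the histones. The median over the 41 histones was -0.03, close to the -0.02 of all genes. HTA10, a canonical H2A gene, was at 25.6 and 27.2 CPM in low R/FR, against 52.7 and 51.8 CPM in high R/FR (-0.98 ± 0.09, adjusted p 6.13e-10). HTA5, an H2A.X gene, was at 19.8 and 20.4 CPM in low R/FR, against 31.4 and 31.1 CPM in high R/FR (-0.64 ± 0.07, adjusted p 9.63e-09). HIS1-3 was at 8.06 and 8.18 CPM in low R/FR, against 18.8 and 20.4 CPM in high R/FR (-1.27 ± 0.16). The groups of these 3 genes did not overlap, and the spread between libraries of a group was small beside the change.

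AT2G28720 was at 8.37 and 8.60 CPM in low R/FR, against 15.6 and 15.9 CPM in high R/FR (-0.89 ± 0.14), and the H4 gene AT5G59690 at 24.8 and 26.9 CPM, against 35 and 38.0 CPM (-0.50 ± 0.10). Smaller falls were called for HTB11 (-0.34 ± 0.10) and HTA1 (-0.30 ± 0.11), which lost their calls without 2 and 3 of the 4 libraries. The 1 gene that rose, the H2A.X gene HTA3 (0.37 ± 0.13), and the fall of HTR12, which marks centromeres (-0.62 ± 0.25, adjusted p 0.0499), were lost without any 1 of the 4. Leaving out a library of 90 min gave 6 or 7 called histones, against 11.

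At 180 min 14 histones rose and 7 fell in hypocotyls, with a median of 0.23. Over all genes 63.8% were called (31.2% higher and 32.6% lower), with a median of -0.04, so the 51.2% of histones called was below the share of all genes.

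The genes that rose at 180 min came from several families. HTA7 was at 53.5 and 57.0 CPM in low R/FR, against 25.8 and 25.3 CPM in high R/FR (1.11 ± 0.09, adjusted p 4.79e-12). HTB4 was at 201 and 218 CPM in low R/FR, against 113 and 107 CPM in high R/FR (0.93 ± 0.09, adjusted p 1.25e-10). HTA3 was at 22.7 and 23.5 CPM in low R/FR, against 13.4 and 13.9 CPM in high R/FR (0.76 ± 0.12). In each case the 2 libraries of a light condition lay close together and far from the other pair. The H3.1 gene AT5G65360, at 32.7 and 33.3 CPM in low R/FR against 19.5 and 21.1 CPM in high R/FR (0.70 ± 0.12), rose with AT1G09200 (0.40), while the other 3 H3.1 genes did not pass the test. The H2A.Z gene HTA11 (0.69 ± 0.14) and the H4 gene AT5G59970 (0.52) rose too, and HTA5, lower at 90 min, was at 43.0 and 44.3 CPM in low R/FR, against 36.4 and 33.7 CPM in high R/FR (0.32 ± 0.07).

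Of the 7 that fell, HIS1-3 was at 7.21 and 7.57 CPM in low R/FR, against 19.96 and 18.2 CPM in high R/FR (-1.37 ± 0.17, adjusted p 3.46e-08). AT2G28720 was at 12.3 and 13.7 CPM in low R/FR, against 31.7 and 31.9 CPM in high R/FR (-1.29 ± 0.13, adjusted p 2.18e-09). Both had been lower at 90 min as well. The replacement histone AT4G40030 was at 160 and 166 CPM in low R/FR, against 233 and 249 CPM in high R/FR (-0.56 ± 0.07, adjusted p 8.81e-08), and AT4G40040 at 192 and 200 CPM, against 225 and 257 CPM (-0.30 ± 0.08). Summed H3.3 mRNA thus stood at 441.6 and 462.8 CPM in low R/FR and 540.4 and 593.6 CPM in high R/FR, while summed H3.1 mRNA stood at 71.1 and 72.9 CPM in low R/FR and 49.5 and 52.5 CPM in high R/FR. Of H3.3, 2 of 3 genes fell (median -0.30), and of H3.1, 2 of 5 rose (median 0.40). Over all genes 32.6% fell and 31.2% rose.

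Paralogs of 1 family moved apart. Among H2A.W genes, HTA7 (1.11) and HTA6 (0.37) rose in hypocotyls at 180 min, while HTA12 fell to 8.25 and 8.71 CPM in low R/FR, against 12.4 and 14.5 CPM in high R/FR (-0.66 ± 0.12, adjusted p 2.28e-05). Among H2B genes, HTB4 rose by 0.93 and AT2G28720 fell by 1.29, and both promoters hold hexamers. HTA7, HTB4 and HIS1-3 hold a G-box and had changes of 1.11, 0.93 and -1.37, while the G-box genes AT3G27360 (0.22) and AT3G09480 (0.22) did not pass the test. Of the related genes with a G-box, AT2G35170 (-1.32) and AT1G77660 (-1.17) fell, as did HDA8. The related G-box genes AT1G21920 and HAC12 did not pass the test at 180 min. AT5G65360 rose and HTA10 fell (-0.28 ± 0.09, a call lost without 2 of the 4 libraries), and both hold octamers. The total over the 42 histones was 1372 and 1448 CPM in low R/FR, against 1326 and 1389 CPM in high R/FR, and the ranges of the light conditions overlap.

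Linker histones differed among themselves. In hypocotyls AT1G06760 was lower in low R/FR at 90 min (-0.31 ± 0.10) and, at 43.3 and 39.2 CPM in low R/FR against 68.1 and 78.2 CPM in high R/FR, at 180 min (-0.83 ± 0.10, adjusted p 1.73e-08). AT2G30620 did not pass the test in hypocotyls, with -0.12, -0.16, -0.21 and 0.01 at 15, 45, 90 and 180 min. In cotyledons AT1G06760 did not pass the test at any time (-0.04, -0.05, 0.11 and -0.18), and AT2G30620 was called at 180 min only (-0.26 ± 0.09, adjusted p 0.0492), a call lost without any 1 of the 4 libraries. HIS1-3 did not pass the test in hypocotyls at 15 and 45 min (-0.25 and -0.21), nor in cotyledons at 15, 45 and 90 min (0.58, -0.22 and 0.10).

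**Figure D3:**
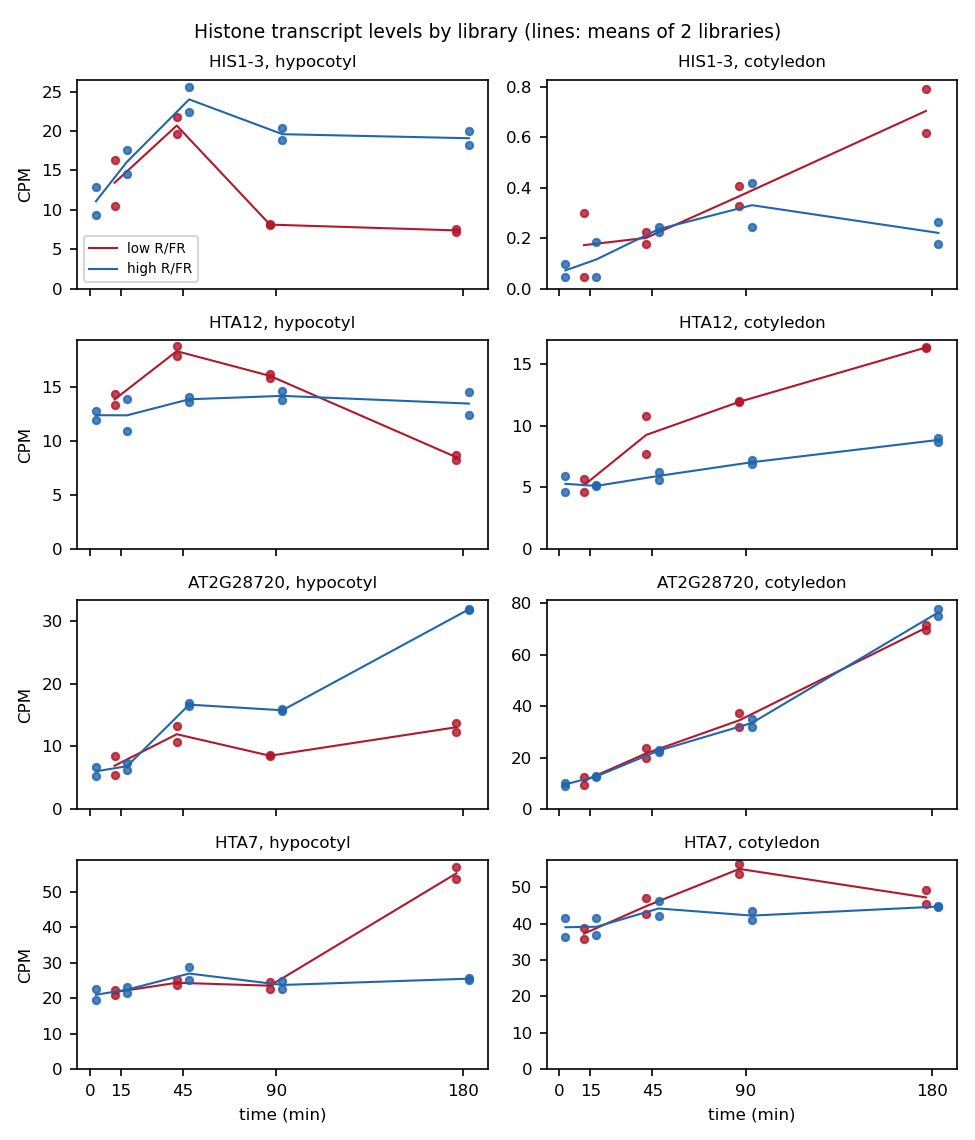
CPM in each library of HIS1-3, HTA12, AT2G28720 and HTA7 by minutes after the start of treatment, hypocotyl left of cotyledon; points are libraries, shifted sideways where they would overlap. In hypocotyls at 180 min the low R/FR points of HTA7 lie at 53.5 and 57.0 CPM and those of HIS1-3 at 7.21 and 7.57 CPM.

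Genes of DNA replication were called in some of the same comparisons. In hypocotyls at 180 min 17 of 21 rose and 0 fell (median 0.92), where 31.2% of all genes rose and 32.6% fell. The smallest p were those of the licensing factor CDT1A (1.90 ± 0.12), the CAF-1 subunit FAS1 (1.29 ± 0.13) and MCM7 (0.92 ± 0.11). The list summed to 200 and 184 CPM in low R/FR, against 123 and 117 CPM in high R/FR. In cotyledons at 180 min 11 rose (median 0.45, with MCM2 0.63, PCNA2 0.55 and MCM7 0.50), where 8.02% of all genes rose. In hypocotyls at 90 min PCNA1 alone rose (0.62), where 19.1% of all genes rose. Of the 12 genes of G2 phase and mitosis, edgeR called 0 in each of the 8 light comparisons, with 0 to 2 in each at an unadjusted p under 0.05 and 0 called by DESeq2. Cell type markers moved as well in hypocotyls at 180 min. All 5 Casparian strip genes fell (median -3.47), summing to 19.3 and 15.1 CPM in low R/FR and 69.8 and 113 CPM in high R/FR. At earlier times libraries of a group stood apart in that sum, at 110 and 34.1 CPM in high R/FR at 90 min. In low R/FR at 15 min they were at 156.9 and 42.1 CPM. All 3 photosynthetic genes fell at 180 min (median -0.54). BASL, 1 of 7 stomatal lineage genes, fell then too (-3.0) while the other 6 did not pass the test. At 90 min LHCB1.1, a light-harvesting protein gene, fell (-0.60), as did BASL (-1.55, a call lost without low R/FR replicate 1). The part of these cell types in the histone changes was not tested.

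**Figure D4:**
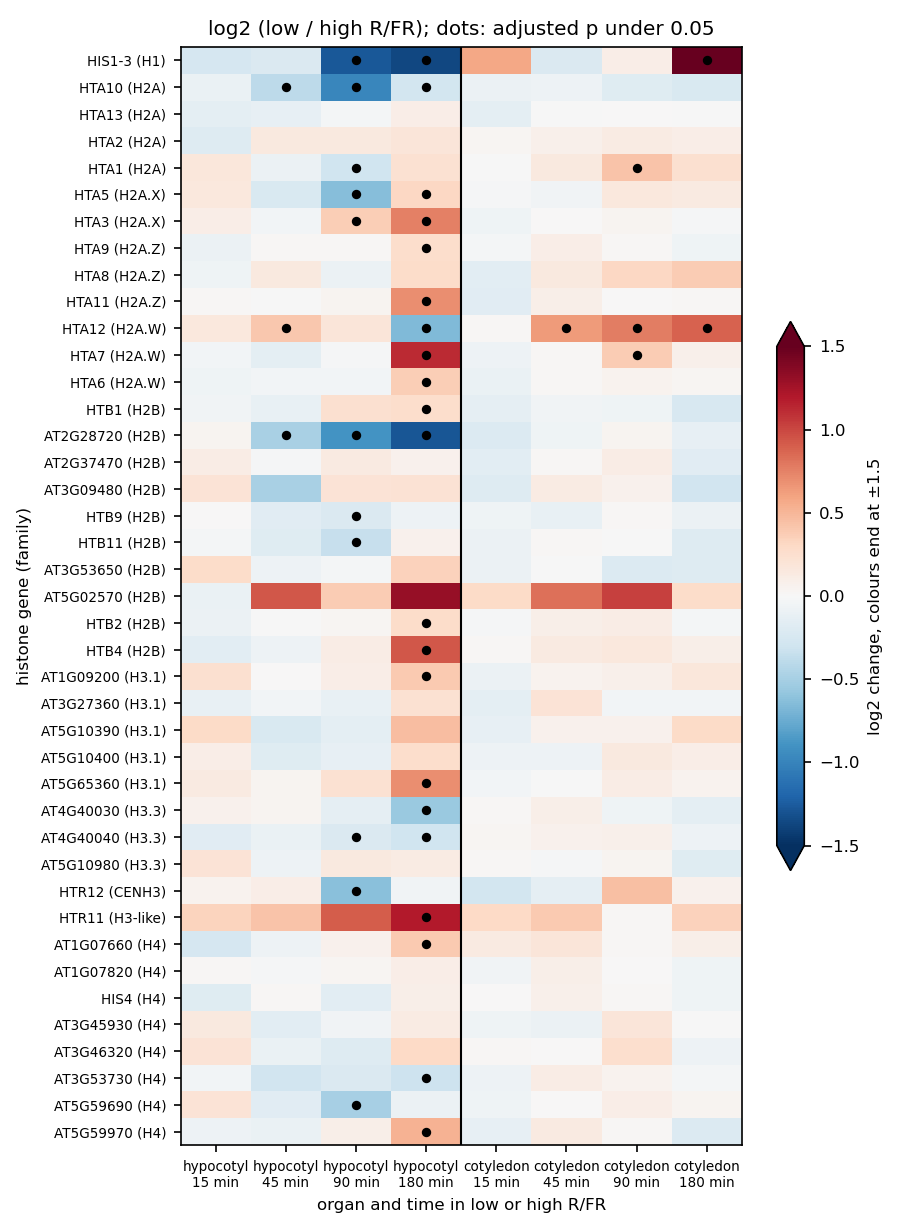
Log2 change of low over high R/FR for the histone genes tested (rows, by family) in the 8 light comparisons, hypocotyl left of cotyledon. Dots mark adjusted p under 0.05, and colours end at 1.5 in either direction. The dots gather in the hypocotyl columns of 90 and 180 min, where 11 and 21 of 41 histones were called.

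Whether the organs responded differently was tested as the hypocotyl minus the cotyledon light change. At 15 and 45 min 0 members differed (0.0149% of all genes did at 15 min and 0.696% at 45 min, 0.293% higher). DESeq2 called 0 as well, and 1 and 3 histones had an unadjusted p under 0.05. At 90 min 8 histones differed, and all 8 had the lower change in hypocotyls (21.4% of all genes called, 9.12% lower and 12.2% higher). HTA5 was the clearest (-0.79 ± 0.10, adjusted p 1.61e-07), with HTA10 at -0.80 ± 0.13, AT2G28720 at -0.93 ± 0.19 and HTA1 at -0.72 ± 0.15. HTA1 was called in each organ in opposite directions, lower in hypocotyls at 12.1 and 9.79 CPM in low R/FR against 13.4 and 13.6 CPM in high R/FR.

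At 180 min 8 histones differed upward and 4 downward (46.5% of all genes called, 23.7% upward and 22.8% downward). HTA12 rose in cotyledons and fell in hypocotyls, and the difference was -1.55 ± 0.18 with adjusted p 1.91e-08. HTA7 (1.04 ± 0.13), HTB4 (0.84 ± 0.12), HTA3 (0.78 ± 0.18) and AT5G59970 (0.72 ± 0.15) differed upward. AT2G28720 differed downward (-1.17 ± 0.18); in cotyledons it was at 69.5 and 71.5 CPM in low R/FR, against 75.3 and 77.8 CPM in high R/FR (-0.12, adjusted p 0.57). HIS1-3 (-3.01 ± 0.57, on few cotyledon reads) and AT4G40030 (-0.42 ± 0.10) also differed downward. Over the 8 light comparisons 26 of 41 histones were called at least once and 15 never. The share of all genes called in any of the 8 was not counted, but 63.8% were called in hypocotyls at 180 min alone.

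Among histone-related genes, all 4 HD2 deacetylases rose in low R/FR in hypocotyls at 180 min, with a median of 1.14. Of all genes, 31.2% rose there. HD2A was at 35.6 and 33.4 CPM in low R/FR, against 9.83 and 8.74 CPM in high R/FR (1.89 ± 0.17, adjusted p 6.93e-10). HD2B was at 169 and 172 CPM in low R/FR, against 78.3 and 72.1 CPM in high R/FR (1.18 ± 0.09, adjusted p 6.47e-12). HDT4 was at 20.9 and 21.3 CPM in low R/FR, against 9.83 and 9.97 CPM in high R/FR (1.09 ± 0.19). No library of either light condition reached the range of the other. HD2C was at 48.0 and 49.1 CPM in low R/FR, against 32.3 and 30.4 CPM in high R/FR (0.63 ± 0.09).

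Smaller rises were called at 90 min and in cotyledons. In hypocotyls at 90 min HDT4 (18.3 and 19 CPM in low R/FR, 11.4 and 13 CPM in high R/FR, 0.61 ± 0.19), HD2A (0.51 ± 0.16) and HD2B (0.31) rose. In cotyledons at 180 min HD2B was at 52.4 and 60.2 CPM in low R/FR, against 39.5 and 44.0 CPM in high R/FR (0.43 ± 0.10, adjusted p 0.002). HD2A was at 9.32 and 10.5 CPM in low R/FR, against 6.08 and 6.43 CPM in high R/FR (0.66 ± 0.21, adjusted p 0.0251), a call lost without any 1 of the 4 libraries. The response at 180 min was larger in hypocotyls for HD2A (1.23 ± 0.27), HD2B (0.75 ± 0.14) and HD2C (0.40).

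**Figure D5:**
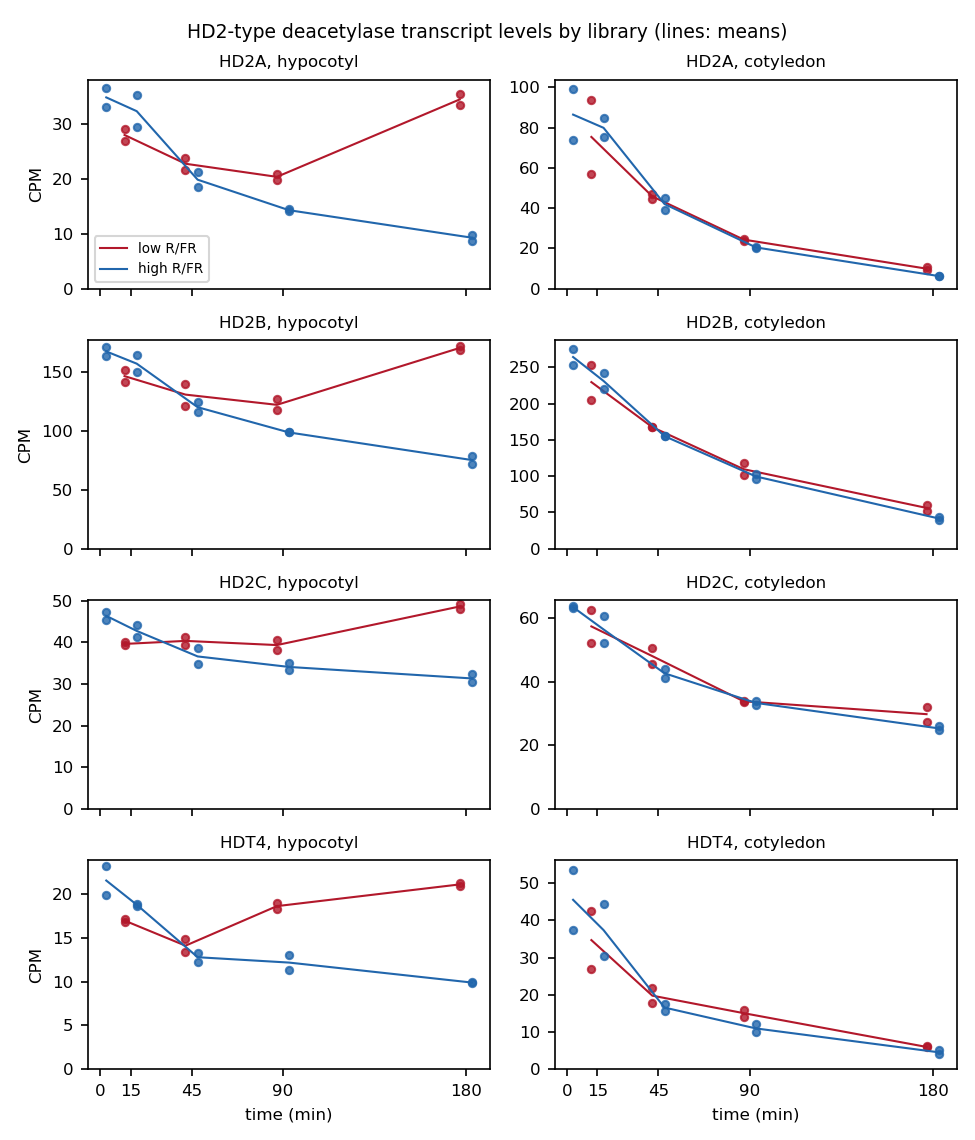
CPM in each library of the 4 HD2 deacetylase genes by minutes after the start of treatment, hypocotyl left of cotyledon. High R/FR points fall with time in both organs, and in hypocotyls at 180 min the low R/FR points of HD2A are at 35.6 and 33.4 CPM, against 9.83 and 8.74 CPM in high R/FR.

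Of 9 deacetylases of the HDAC type in hypocotyls at 180 min, 4 fell and 1 rose, a called share of 55.6% against the 63.8% of all genes. HDA6 (0.20), HDA15 (0.04) and HDA19 (0.07) did not pass the test, nor did HDA18, on 6 and 2 counts in low R/FR against 8 and 8 in high R/FR. HDA14 was at 12.4 and 12 CPM in low R/FR, against 24.9 and 27.9 CPM in high R/FR (-1.12 ± 0.08), and HDA8 at 11 and 11.8 CPM, against 21.7 and 21.9 CPM (-0.94 ± 0.13). HDA2 (-0.81) and HDA5 (-0.51) fell, and HDA9 rose (0.30), as did HDC1 (0.26), a partner of histone deacetylases. Of the windows of 50 exonic bases of HDA9, 77.9% occur once in the genome, so its level is less certain. The organs differed for HDA8 at 180 min (-1.14 ± 0.19).

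Genes described as methyltransferases or related to them held the deepest falls among the related genes in low R/FR. AT2G40020 was at 2.0 and 1.85 CPM in low R/FR, against 10.4 and 9.62 CPM in high R/FR, in hypocotyls at 180 min (-2.38 ± 0.21, adjusted p 4.48e-10). It had been at 3.74 and 4.03 CPM in low R/FR, against 9.01 and 7.77 CPM in high R/FR, at 90 min (-1.11 ± 0.19). It also fell in cotyledons, to 20.06 and 21.4 CPM in low R/FR against 38.6 and 40.7 CPM in high R/FR, at 180 min (-0.94 ± 0.15). Here the organs moved the same way but to different extents (-1.44 ± 0.27).

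The SET7/9 type genes differed among themselves. AT1G77660 was at 12 and 12.8 CPM in low R/FR, against 29.9 and 26 CPM in high R/FR, in hypocotyls at 180 min (-1.17 ± 0.12), and AT2G35170 was at 5.77 and 5.22 CPM, against 13.2 and 14.4 CPM (-1.32 ± 0.15). AT4G17080 fell as well (-0.88). The fourth, AT1G21920, was at 180 and 204 CPM in low R/FR, against 125 and 147 CPM in high R/FR, in hypocotyls at 90 min (0.50 ± 0.08). At 180 min AT3G26850 (0.59) and ASHH3 (0.32) rose. EFS, which methylates lysine 36 of H3, fell in cotyledons at 180 min (-0.34 ± 0.10).

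The remaining classes had few calls. Of 9 acetyltransferases in hypocotyls at 180 min, HAC4 alone was called (-0.30). HUB1, which with HUB2 attaches ubiquitin to H2B, fell (-0.24), as did AT4G08310 of the 4 chaperones (-0.23). ASF1A and HIRA, chaperones of H3 and H4, had changes of -0.15 and 0.08 that did not pass the test at 180 min. ASF1A fell in hypocotyls at 90 min (-0.27 ± 0.10, adjusted p 0.0239 by edgeR), a call lost by DESeq2 (adjusted p 0.0526) and without each of 3 of the 4 libraries. Over all 44 related genes, in hypocotyls 8 rose and 12 fell at 180 min and 4 rose and 9 fell at 90 min, with a median of -0.05 at both times. The called shares of 45.5% and 29.5% were below the 63.8% and 37.6% of all genes. In cotyledons 2 rose and 2 fell at 180 min, where 19.5% of all genes were called. At 90 min there 0 rose and 2 fell (AT2G40020 -0.54, AT4G17080 -0.34), where 10.8% of all genes were called. Of the 44, 20 were called in no light comparison. That share over all genes was not counted, but 63.8% were called in hypocotyls at 180 min alone. At 45 min 0 related genes were called in either organ by either test, with 1 in hypocotyls and 6 in cotyledons at an unadjusted p under 0.05.

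The third comparison is 180 against 0 min in high R/FR, in which elapsed time and time of day cannot be told apart. It shares its 180 min libraries with the light comparison. In cotyledons 12 histones were higher at 180 min and 5 lower (55.6% of all genes called, 32.1% higher and 23.5% lower; histone median 0.13, all genes 0.11). In hypocotyls 14 were higher and 0 lower (44.9% of all genes called, 22% higher and 22.9% lower; histone median 0.12, all genes 0.01). AT2G28720 had the widest rise in both organs. It was at 31.7 and 31.9 CPM at 180 min, against 5.32 and 6.68 CPM at 0 min, in hypocotyls (2.40 ± 0.15). In cotyledons it was at 75.3 and 77.8 CPM at 180 min, against 9.09 and 10.09 CPM at 0 min (3.00 ± 0.14).

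Among other histones, HTB9 was at 64.3 and 68.4 CPM at 180 min, against 40.1 and 35.4 CPM at 0 min, in hypocotyls (0.81), and at 189 and 183 CPM, against 110 and 101 CPM, in cotyledons (0.82). The H4 gene HIS4 rose in both organs (0.62 in hypocotyls, 0.76 in cotyledons), as did AT4G40040 (0.43 and 0.69). HTA3 was at 20.2 and 19 CPM at 180 min, against 41.8 and 34.3 CPM at 0 min, in cotyledons (-0.96), and HTA10 at 72.4 and 76.1 CPM, against 124 and 104 CPM (-0.62). HTB2 (-0.29), HTR12 (-0.52) and the H3.1 gene AT5G10390 (-0.66) were the other 3 that fell there. HIS1-3 rose in hypocotyls, at 19.96 and 18.2 CPM at 180 min against 12.9 and 9.28 CPM at 0 min (0.79). In cotyledons it had 4 and 7 counts at 180 min, against 2 and 1 at 0 min, and did not pass the test.

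The HD2 genes fell over the same hours. HD2A was at 6.08 and 6.43 CPM at 180 min, against 99.0 and 73.9 CPM at 0 min, in cotyledons (-3.79 ± 0.19), and at 9.83 and 8.74 CPM, against 36.6 and 33.1 CPM, in hypocotyls (-1.90 ± 0.17). HD2B was at 39.5 and 44.0 CPM at 180 min, against 276 and 253 CPM at 0 min, in cotyledons (-2.66 ± 0.10), and at 78.3 and 72.1 CPM, against 171 and 164 CPM, in hypocotyls (-1.15). All 4 HD2 genes fell in each organ, with medians of -1.14 in hypocotyls and -2.99 in cotyledons, and the fall was smaller in hypocotyls for all 4. Over all genes 22.9% fell in hypocotyls and 23.5% in cotyledons. Summed over the 4, HD2 mRNA in hypocotyls was at 273 and 276 CPM at 180 min in low R/FR, at 130 and 121 CPM at 180 min in high R/FR and at 273 and 267 CPM at 0 min in high R/FR.

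HDA2 went the other way, at 5.06 and 5.67 CPM at 180 min against 0.532 and 0.817 CPM at 0 min in cotyledons (2.99 ± 0.30), and rose by 1.68 in hypocotyls. The chaperone-described AT1G44780 rose in both organs (0.88 in hypocotyls, 1.03 in cotyledons). Of the 44 related genes, 6 rose and 8 fell in hypocotyls, where 44.9% of all genes were called. In cotyledons 13 rose and 13 fell, where 55.6% of all genes were called. Of the 21 replication genes, 3 rose and 3 fell in hypocotyls (median 0.11), while 1 rose and 19 fell in cotyledons (median -0.74; ribonucleotide reductase RNR1 -1.36, TSO2 -1.27). Their part in the histone changes was not tested. Between the organs, 3 histones differed upward and 3 downward (34% of all genes called, 14.2% upward and 19.9% downward), against 8 and 1 with library totals alone, which put the median of all genes at 0.06, against -0.07 with TMM.

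The authors' deposited tables give their own tests of low against high R/FR. At their adjusted p under 0.05 in hypocotyls, the authors' deposited tables call 10 histones higher and 5 lower at 180 min, and all 15 were called here in the same direction. At 45 min in hypocotyls the authors' deposited tables call 1 histone higher and 3 lower, and 3 of these 4 were called here. At 90 min in hypocotyls the authors' deposited tables call 0 histones higher and 6 lower, all 6 among the 11 called here. For histone-related genes in hypocotyls at 180 min the authors' deposited tables call 7 higher and 9 lower, and all 16 were among the 20 called here. In cotyledons the authors' deposited tables call 3 histones higher at 90 min and 1 at 180 min, and all 4 calls were made here too. At 45 min in cotyledons the authors' deposited tables call 1 histone higher, which was called here, and 1 histone-related gene lower, which was not.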

How the data were processed

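RNA was measured in 36 libraries, 18 of each organ. Reads were counted per gene by the authors, who deposited raw counts for 33602 genes and 5 summary lines, which stayed out of library sizes and tests. Per the submitters' processing notes limma 3.18.2 and edgeR 3.4.0 were used besides HTSeq 0.5.4p3, TopHat2 2.0.9 with Bowtie and cutadapt 1.2.1, on TAIR10; HTSeq's strand setting and its treatment of near-identical copies are not given in the sources used here. The authors also deposited tables of log2 fold changes with p-values and adjusted p-values, which are used as such in 1 paragraph.

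Here, edgeR 4.0.16 in R 4.3.3 (limma 3.58.1) fitted 1 mean per group over all 36 libraries, with filterByExpr (minimum count 10, minimum total 15; 20126 genes), TMM scaling, robust quasi-likelihood tests and 18 residual degrees of freedom. The organ comparison used 20 libraries, 14 residual degrees of freedom and 19825 genes. The standard error is the log2 change divided by the square root of F. The common biological coefficient of variation was 0.0763, so small changes of well-covered genes can pass. Of 42 histones, AT1G13370 stayed under the filter; of the related genes, 1 did so in the organ comparison. Scripts were tested on simulated data. Alternatives were RLE scaling, no filter, DESeq2 1.42.0, each library left out, a replicate block, each organ alone and, added after seeing the data, library totals without TMM.

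Lengths, names and bases came from RefSeq (TAIR10.1). The members, lists and motifs were chosen with earlier results of these data known. The rule for names took called histones, at most 8 a comparison by smallest p, up to 3 other members each way by size of change, and up to 3 of each list by smallest p. The other genes named were chosen after their values were seen.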

Additional observations from a re-analysis of the deposited data

Results flagged for a closer look

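Responses that differed between the organs are listed here, by the test of the difference itself at an adjusted p under 0.05. Values are the hypocotyl change minus the cotyledon change on the log2 scale.

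For low over high R/FR at 90 min, 8 of 41 histones and 4 of 44 related genes differed, where 21.4% of all genes did. The histones were HTR12 (-1.08), AT2G28720 (-0.93), HTA10 (-0.80), HTA5 (-0.79), HTA1 (-0.72), AT5G59690 (-0.59), HTA12 (-0.59) and HTA7 (-0.40). The related genes were AT1G77660 (-0.87), AT2G35170 (-0.77), AT1G21920 (0.46) and EFS (0.40).

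For low over high R/FR at 180 min, 12 of 41 histones and 16 of 44 related genes differed, where 46.5% of all genes did. The 8 histones with the smallest p were HTA12 (-1.55), HTA7 (1.04), HTB4 (0.84), AT2G28720 (-1.17), HIS1-3 (-3.01), AT5G59970 (0.72), HTA3 (0.78) and AT4G40030 (-0.42). Of the related genes the farthest apart were HD2A (1.23), HD2B (0.75), AT3G26850 (0.58), AT2G40020 (-1.44), AT2G35170 (-1.43) and HDA8 (-1.14).

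For 180 over 0 min in high R/FR, 6 of 41 histones and 10 of 44 related genes differed, where 34% of all genes did. The histones were HTA3 (0.68), HTA10 (0.47), HTB2 (0.43), AT2G28720 (-0.59), HTA12 (-0.63) and AT3G53650 (-1.02), the last of which lost its call without any 1 of the 8 libraries. The related genes farthest apart were HDT4 (2.20), HD2A (1.88), HD2B (1.51), HDA2 (-1.31), AT2G35170 (-0.98) and HAC5 (-0.41).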

How the results depend on the processing

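Counts of members called kept within 1.5 times of the reported count in each of the 16 comparisons under RLE scaling, DESeq2, library totals and the replicate block, and without the filter in 15. The exception was cotyledon at 45 min without the filter, with 3 called against 1. Leaving out a library gave 0 to 3 called in hypocotyl and 0 to 0 in cotyledon at 15 min, 0 to 1 and 0 to 11 at 45 min, 12 to 18 and 3 to 4 at 90 min, and 33 to 35 and 2 to 5 at 180 min. In hypocotyls, 3 came without high R/FR replicate 1 of 15 min, 0 or 1 without any library of 45 min, and 12 and 15 without replicate 2 of low and high R/FR of 90 min. In cotyledons at 45 min, 11 came without low R/FR replicate 1 and 0 without replicate 2 of either light. At 90 min 3 came without either high R/FR library, and at 180 min 2 without low R/FR replicate 2 and 3 without high R/FR replicate 1. For the difference between organs the ranges were 0 to 0, 0 to 3, 9 to 12 and 24 to 29 at 15, 45, 90 and 180 min. For 180 over 0 min they were 23 to 28 in hypocotyls, 33 to 36 in cotyledons and 8 to 17 for their difference, and for the organs 63 to 67. The 8 came without cotyledon replicate 1 of 0 min, 9 without hypocotyl high R/FR replicate 2 of 180 min, and the 3 at 45 min without cotyledon low R/FR replicate 1. With the replicate block 24 members were called in hypocotyls at 90 min and 39 at 180 min, against 24 and 41. That block was 1 factor of replicate number over all groups. It does not model a plate shared by the organs at 1 time and light. Deviations of same-numbered libraries correlated at -0.026 to 0.073 between lights and 0.054 to 0.14 between organs, where 4 of 7 values were above 0.1. As not every value was above 0.1 and the labels do not say what a number shares, the numbers were not used as pairs. With a block of time and replicate number, 65 members were called between organs, against 66.

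With library totals without TMM, chosen after seeing the data, organ differences turned positive for AT1G07660 (0.50), HAC4 (0.32), HAG1 (0.39), HAG2 (0.12), HAM1 (0.37), EFS (0.28), AT3G26850 (0.42), ASF1A (0.44), HIRA (0.51), AT4G14385 (0.40) and CDC20.1 (0.17). By its construction that setting leaves the organs' difference in composition in place. Histones called in cotyledons at 180 min were then 4 against 2, and those that differed between organs at 90 min 12 against 8. No other alternative turned a direction. With few reads, as for HIS1-3 in cotyledons and AT3G53650 in hypocotyls, depth limits what can be seen.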
